A study of Mus musculus with 24 samples.

Results

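The genes described here are the collagen and laminin genes of the mouse retina. They were taken from the gene table as every protein-coding gene on chromosomes 1 to 19 or X whose symbol begins with Col, a number, a and a number, or with Lama, Lamb or Lamc and a number. This gave 56 of the 45594 genes in the table, and all 56 passed the filter on low counts that left 21858 genes for testing. By role they are 44 collagen chains, 11 laminin chains and Col4a3bp, which met the rule through its symbol but encodes a ceramide transfer protein and is not a collagen. The study sequenced polyadenylated RNA of whole retina from C57/Bl6N mice at 12 ages, with 2 libraries per age and 24 in all. The embryonic ages were E11, E12, E14 and E16 (E, embryonic day), and the postnatal ages (P, postnatal day) ran every 2 days from P0 to P6, then P10 and P14, and last P21 and P28. No genotype or treatment differed between the ages, and 100 ng of RNA was used at E11 and E12 against 1 µg at the other ages. Nothing in the labels tells if the 2 libraries of an age came from different animals, litters or pools. P-values therefore measure only the spread between these samples, which may be technical. In RNA of a whole tissue, fewer cells of a type and less RNA per cell cannot be told apart.

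Collagens are triple-helical proteins of the extracellular matrix, each assembled from 3 α chains, and laminins are cross-shaped trimers of an α, a β and a γ chain. Laminin and collagen IV form the 2 networks of every basement membrane. In the eye such sheets lie at the inner limiting membrane, where the end feet of radial progenitors and Müller glia meet the vitreous, around blood vessels, in the Bruch membrane under the pigment epithelium, and around the lens as its capsule. The vitreous itself is a gel of collagen II, IX, V and XI fibrils. Laminins with the β2 chain are also known from the space between photoreceptors and from their synapses.

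Library totals ran from 24567532 to 35898879 estimated counts, and the 56 genes took between 0.0884% (P28 replicate 2) and 0.212% (E11 replicate 1) of a library. Levels are CPM, counts scaled to a common library total after trimmed-mean normalisation, given for replicate 1 and then replicate 2 unless a mean ± SD (n = 2) is named, and they do not compare genes of different length. Of the neural retina markers checked, all 10 were found, and their sum lay between 1283 and 2216 CPM in every E11 to E16 library and between 40044 and 65393 CPM at P21 and P28. Libraries of 3 embryonic ages stood apart in the lens crystallin gene Cryaa. It was at 2082 and 3.5 CPM at E11, 95.7 and 1652 CPM at E12, 32.6 and 1075 CPM at E14, and at 0 in both E16 libraries. After E16 it was highest at 44.3 CPM, in P14 replicate 2. The high library was thus replicate 1 at E11 and replicate 2 at E12 and E14. Sums of 12 mesenchyme markers were 100.7 and 137 CPM at E11, 34 and 63.4 at E12 and between 3.77 and 6.53 at E14 and E16. Sums of 8 red cell markers were 2952 and 7314 CPM at E11, 1005 and 583 at E12, and 15.5 or less at E16.

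Most of the genes changed with age. A gene was called where the edgeR quasi-likelihood test passed a Benjamini-Hochberg adjusted p of 0.05 over all genes tested and the fitted ages spanned at least 2-fold. By this rule 54 of the 56 were called as differing between ages, against 77.28% of all genes tested. Without the 3 libraries rich in crystallins, 53 were called. The exceptions were Col14a1 (adjusted p 0.306) and Lamb3 (adjusted p 0.107), neither of which exceeded a mean of 2.57 CPM at any age.

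The 54 were grouped by the age of the highest mean. E11 was highest for 15 (27.8%, where 21.9% of all called genes had their highest mean), namely the interstitial chains Col1a1, Col1a2, Col3a1 and Col5a2, with Col6a3, Col9a1, Col11a1, Col13a1, Col15a1, Col18a1 and Col22a1 and the laminins Lama1, Lama5, Lamb1 and Lamc1. E14 was highest for 7 (12.96% against 5.76% of all called genes), which were Col4a1, Col4a2, Col4a5, Col4a6, Col5a1, Col9a2 and Lamb2. No member was highest at E12 or E16, where 7.60% and 4.36% of all called genes were. Between P0 and P10 11 members were highest, 1.85% to 7.41% of the 54 at each age against 2.80% to 7.13% of all called genes, among them Col28a1 and Lamc3 at P0, Col2a1, Col9a3, Col16a1 and Col26a1 at P2, Col6a4 at P4, Col6a5 and Lama3 at P6, and Col17a1 at P10. P14 was highest for 11 (20.4% against 10.6%), which were Col4a3, Col5a3, Col6a2, Col8a1, Col8a2, Col10a1, Col12a1, Col23a1, Col25a1, Lama2 and Lama4. P21 was highest for 8 (14.8% against 13.2%), which were Col6a1, Col6a6, Col7a1, Col11a2, Col19a1, Col20a1, Col24a1 and Col27a1, and P28 for Col4a4 and Col4a3bp (3.70% against 13.1%). The age of the highest mean is a description, and in 22 of the 54 both libraries of that age lay above both of the next highest age. That share was not computed over all called genes, so it does not tell the members from other genes. When the deposited transcript estimates were summed per gene instead, 47 of the 56 kept the same age. The 9 that moved included Lama1 and Col22a1 (to E14), Lamc3 (to P2), Col17a1 (to P6), Col6a4 and Col14a1 (to P14), and Col12a1 and Col20a1 (to P28).

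**Figure D1:**
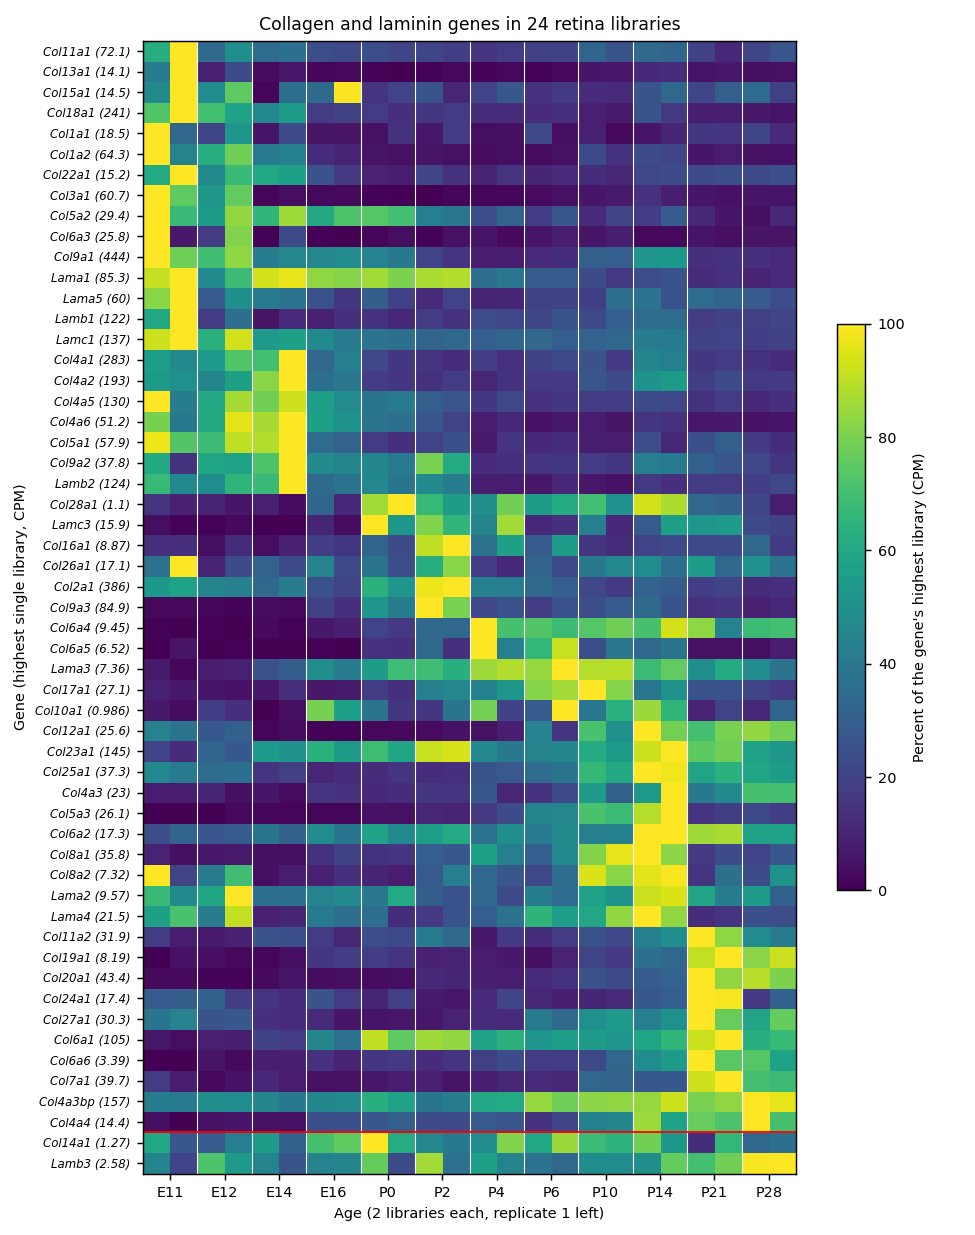
Each row is a gene and each column a library, 2 per age with replicate 1 on the left, coloured by the CPM as a percentage of that gene's highest single library, which is printed in brackets. Rows are ordered by the age of the highest mean, 1 member is not drawn, and the 2 genes below the red line were not called. The upper rows brighten at E11 to E14, often in only 1 of the 2 libraries, and the lower rows at P14 to P28.

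At E11, E12 and E14, as at most other ages, the 2 libraries of an age differed more in these genes than in the table as a whole. Among members with at least 5 CPM in either library, 8 of 37 were over 2-fold higher in E11 replicate 1, the library with crystallins, and 3 were over 2-fold lower, against 2.77% and 2.7% of all genes at that level. The 8, from the gene table, were Col1a1, Col1a2, Col4a5, Col6a3, Col7a1, Col8a2, Col9a2 and Col11a2. From summed transcripts Col7a1 (4.02 and 4.12 CPM) and Col11a2 (3.49 and 2.94 CPM) were not over 2-fold apart at E11, and the others were. At E12 the library with crystallins was over 2-fold higher for Col1a1, Col6a3, Lama4 and Lamb1, which are 4 of 33, against 1.66% of all genes, and none was lower by that much. At E14 it was over 2-fold higher for Col6a3, Col15a1 and Lamb1, which are 3 of 27, against 0.709% of all genes. At E16, where Cryaa was at 0, 1 of 27 was over 2-fold higher in each library, against 0.287% and 0.303% of all genes. The part of lens tissue in these differences was not tested.

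Col6a3, a chain of the collagen VI beaded filaments of connective tissue, showed the embryonic differences most. It was at 25.8 and 1.71 CPM at E11, 4.51 and 20.9 at E12, 0.255 and 5.82 at E14, and 0.271 and 0.0928 at E16. At all 3 earlier ages the library rich in crystallins was the high one. Col1a1, a chain of the collagen I of skin, bone and sclera, was at 18.5 and 6.11 CPM at E11, 3.89 and 9.64 at E12 and 1.02 and 4.15 at E14. From summed transcripts Col1a1 was at 22 and 3.25, 4.33 and 6.39, and 1.29 and 1.59 CPM at these ages. Its partner chain Col1a2 was at 64.3 and 28.8 CPM at E11 but at 40.1 and 50.4 at E12 and 26.7 and 28.23 at E14. Col4a5, a basement membrane chain, was at 130 and 54.9 CPM at E11, 78.7 and 112 at E12 and 102 and 120 at E14. The opposite order at E11 was shown by Col13a1, a transmembrane collagen, at 5.75 and 14.097 CPM, by Col15a1 at 6.9 and 14.5, and by Col26a1 at 6.47 and 17.1. These 3 were higher in replicate 2, which also had the higher sums of mesenchyme and red cell markers, and the part of those cells was not tested. Lamb1 was higher in replicate 2 at every embryonic age, at 73 and 122 CPM at E11, 21.8 and 44.4 at E12, 6.26 and 14.4 at E14 and 11.16 and 16.5 at E16.

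**Figure D2:**
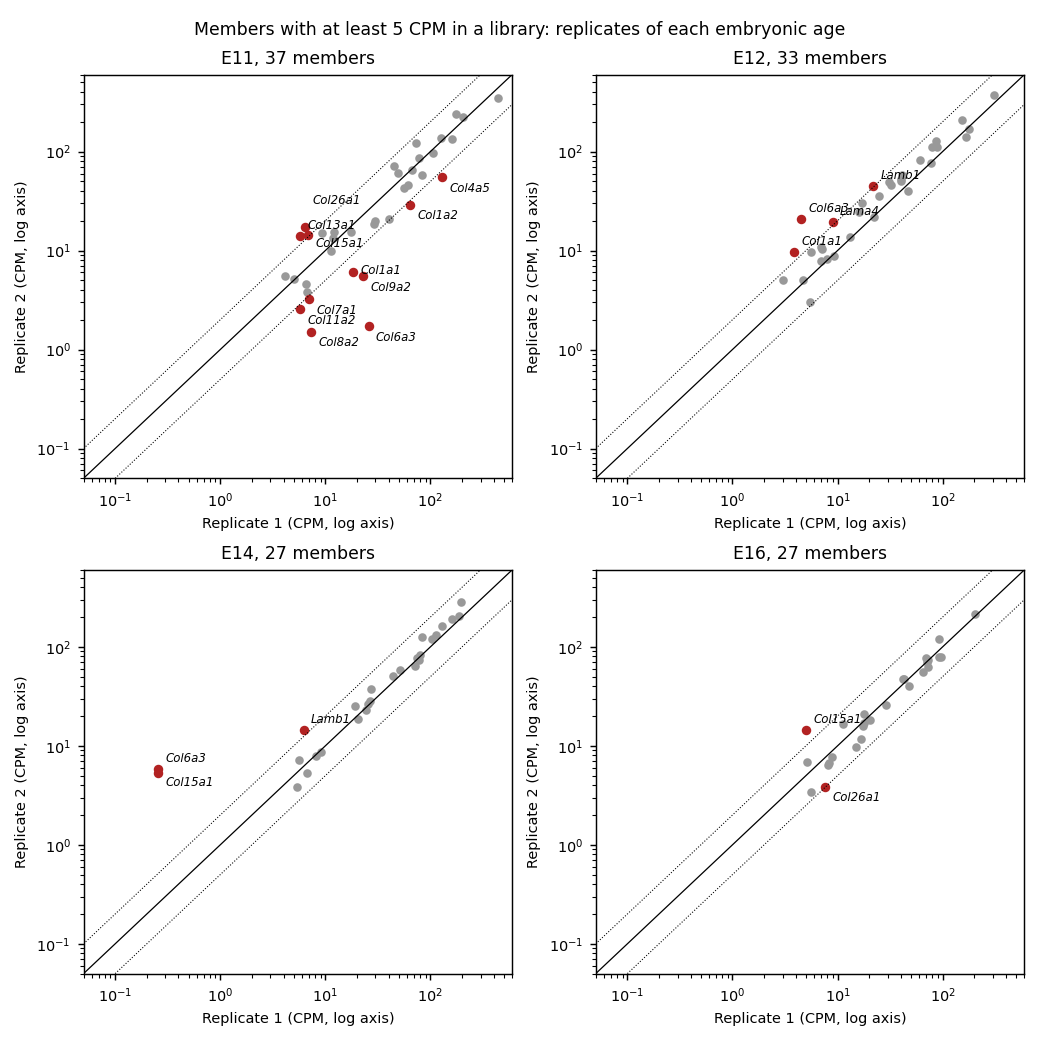
Each panel plots replicate 2 against replicate 1 in CPM on log axes at E11, E12, E14 and E16, 1 point per member with at least 5 CPM in either library. The solid line marks equality, dotted lines mark 2-fold, and red points beyond them are named. Col6a3 lies below the line at E11 and above it at E12 and E14, and at E16 the named genes are Col15a1 and Col26a1.

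From E11 to E16 the genes that went down outnumbered those that went up. Between these ages 18 members were called lower, where 9.113% of all genes were, and 10 were called higher, where 13.57% of all genes were. The median log2 change was -0.38 over the members and 0.00 over all genes. Libraries of called members did not overlap between the ages, here or in the other windows. This adds no support, since the calls rest on the same libraries, and it was not counted over all genes. Without the 3 libraries rich in crystallins, with the lone E11 library assumed to vary like the others, 18 were called lower and 11 higher, and with E12 in place of E11 the counts were 13 and 9. Of 11 mesenchyme markers tested, all 11 fell, as did 12 of 15 lens markers and all 8 red cell markers. The lens fall rests mainly on E11 replicate 1, as the lens marker sum was 3494 and 57.2 CPM at E11. Sums of mesenchyme and red cell markers were high in both E11 libraries. The lens marker Birc7 did not fall, at 11 and 5 counts at E11 and 26 and 18 at E16. Lens markers other than Prox1 were at or near 0 at E16 (Cryba1 at 0.451 and 0.526 CPM, Cryaa and Lim2 at 0 in both libraries), and the part of these tissues in the members' fall was not tested.

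The 6 largest falls were in Col6a3, Col3a1, Col13a1, Col12a1, Col1a1 and Lamb1. Col3a1, the fibrillar chain of vessel walls and loose tissue, was at 60.7 and 45.6 CPM at E11, 32.2 and 46 at E12, 0.83 and 2.2 at E14 and 1.2 and 1.33 at E16, a log2 change from E11 to E16 of -5.39 (SE 0.44, edgeR quasi-likelihood adjusted p 2.5e-08). Both libraries of E11 and E12 were high, whichever held crystallins. Col12a1, which decorates collagen I fibrils, was at 11.4 and 9.84 CPM at E11 and 0.271 and 0.278 at E16, a log2 change of -5.25 (SE 0.50, edgeR adjusted p 1.79e-07). Col13a1 fell by 5.32 on the log2 scale (SE 0.59, edgeR adjusted p 1.08e-06) and Col1a1 by 3.65 (SE 0.88, edgeR adjusted p 0.00253). Col6a3 fell by 6.202 (SE 1.40, edgeR adjusted p 0.00145), but without E11 replicate 1 the change was -3.20 and the call was lost (adjusted p 0.058). Lamb1 fell by 2.82 (SE 0.36, edgeR adjusted p 5.84e-06).

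Among members with a mean of at least 5 CPM at E16, the largest rise was in Col6a1, the α1 chain of collagen VI, which was at 6.7 and 3.81 CPM at E11 and 47.9 and 39.9 at E16, a log2 change of 3.06 (SE 0.18, edgeR adjusted p 3.95e-10). Col9a3 rose by 2.89 (SE 0.30, edgeR adjusted p 4.66e-07), from 1.9 and 1.92 CPM to 16.6 and 11.8. The transmembrane collagen Col23a1 rose by 1.85 (SE 0.16, edgeR adjusted p 5.4e-08), from 28.9 and 18.5 CPM to 92.6 and 78.7. Against E12 instead of E11, the Col23a1 change was 0.98, just under 2-fold. Col8a1, a short-chain collagen of corneal and vessel basement membranes, rose by 1.29 (SE 0.32, edgeR adjusted p 0.00317). Its call was lost without E11 replicate 2, where the change was 0.78 (adjusted p 0.055), and in a fit of the compared ages alone (adjusted p 0.0757). Of the genes called higher, 6 were below a mean of 5 CPM at E16, namely Col4a4, Lama3, Col6a4, Col10a1, Col19a1 and Col6a6. Col4a4 and Lama3 had larger log2 changes than Col6a1, at 3.46 and 3.40. Col6a6 had no count in either E11 library and for which 3 counts would be 0.0985 and 0.103 CPM.

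The laminin chains did not share a time course. Levels between chains were compared as summed transcript estimates in CPM per kb of the longest coding transcript, as each chain's share of its class. Among α chains, Lama1, the α chain of early epithelial and inner limiting membranes, held between 52.6% and 57.6% of the class in the 4 libraries of E11 and E12, between 71.8% and 79.2% from E14 to P2, 54.0% and 55.7% at P4 and 20.1% and 25.2% at P28. Lama5, the α chain of mature epithelial and vessel membranes, held 25.1% and 31.5% at E11, between 6.75% and 9.46% from E16 to P2 and 44.7% and 43.7% at P28. Lama4, the α chain of vessel walls, held 39.9% and 43.4% at P10 and 18.2% and 16.7% at P28. The class thus passed from mainly Lama1 to a mixture of Lama5, Lama1 and Lama4 over the first postnatal weeks.

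Lama1 itself was at 77.7 and 85.3 CPM at E11, 74.4 and 75.4 at P2, 30.5 and 33.4 at P4 and 8.64 and 10.12 at P28. The libraries of P2 and P4 did not overlap, and the largest step down lay between those ages. Lama1 means were 74.9 CPM at P2, 32 at P4, 17.1 at P10, 21 at P14 and 9.38 at P28. It was lower at P6 than at E16 by 1.52 on the log2 scale (SE 0.15, edgeR adjusted p 2.07e-07) and lower at P28 than at P14 by 1.16 (SE 0.15, edgeR adjusted p 4.09e-05). Lama4 was at 12.19 and 15.4 CPM at E11, 2.01 and 2.2 at E14, 21.5 and 18 at P14 and 5.22 and 5.07 at P28, and fell from P14 to P28 by 1.94 (SE 0.38, edgeR adjusted p 0.00131). Lama5 was at 49.4 and 60 CPM at E11, 6.18 and 6.23 at P4 and 22.8 and 15.1 at P14, and fell from E11 to E16 by 2.14 (SE 0.34, edgeR adjusted p 5.41e-05). Its P14 level rests on the summary of transcripts: P14 against P6 was not called in the gene table (log2 change 0.70, adjusted p 0.111) and was called from summed transcripts, which gave 28.6 and 30.2 CPM at P14 and 8.04 and 8.68 at P6 (log2 change 1.81). Lama2, the chain of muscle and nerve sheaths, had its highest mean of 8.91 CPM at P14, and Lama3, the epidermal chain, had 6.8 CPM at P6.

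The β chains changed order. Lamb2, the β chain of the synapse and of mature membranes, was at 83.9 and 58.3 CPM at E11, 83.7 and 124 at E14, 59.1 and 52.6 at P2, 10.3 and 9.73 at P4 and 22.9 and 26.6 at P28. Lamb1, its early counterpart, was at 6.26 and 14.4 CPM at E14, 21.3 and 17.3 at P2, 28.8 and 25.9 at P4 and 43.2 and 42.5 at P14. Lamb2 held 75.1% and 74.3% of the β class at P2 and 32.9% and 34.3% at P4. The order of both chains thus reversed between P2 and P4, and E11 replicate 2 alone among the embryonic libraries had more Lamb1 (69.6%) than Lamb2 (29.9%). From E16 to P6 Lamb2 fell by 2.08 (SE 0.25, edgeR adjusted p 3.01e-06) and Lamb1 rose by 1.05 (SE 0.35, edgeR adjusted p 0.0199), the latter just under 2-fold from summed transcripts (0.95). At P28 summed transcripts gave Lamb2 14.9 and 13.5 CPM, below the gene table. Lamb3 values say little of the protein, since between 49.2% and 96.4% of its estimates in a library lay on transcripts annotated as not coding.

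Among γ chains Lamc1, the common γ chain, held 97.2% and 97.8% of the class at E11 and between 74% and 86% of it from P0 on. It was at 127 and 137 CPM at E11, 65.7 and 55.9 at E16, 57.7 and 56.6 at P14 and 25.5 and 27.1 at P28, and fell in the first and the last window by 1.12 each (SE 0.13, edgeR adjusted p 2.35e-06 and 1.55e-05). Lamc3, a γ chain known from retina and brain, had no count in either E14 library, where 3 counts would be 0.0957 and 0.106 CPM. It was at 1.62 and 0.557 CPM at E16, 15.9 and 8.42 at P0, 12.9 and 10.4 at P2, 7.2 and 13.7 at P4, 1.75 and 2.16 at P6 and 8.38 and 8.6 at P21. Summed transcripts gave 9.27 and 6.62 CPM at P0 and 3.38 and 3.55 at P4. Lamc3 was thus low before birth and held 17.1% and 15.1% of the γ class at P0. Its rise from P6 to P14 (log2 change 1.79, SE 0.61, edgeR adjusted p 0.0283) was lost without P14 replicate 2 (1.21, adjusted p 0.23) and without P6 replicate 1 (adjusted p 0.151) or P6 replicate 2 (adjusted p 0.0925).

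**Figure D3:**
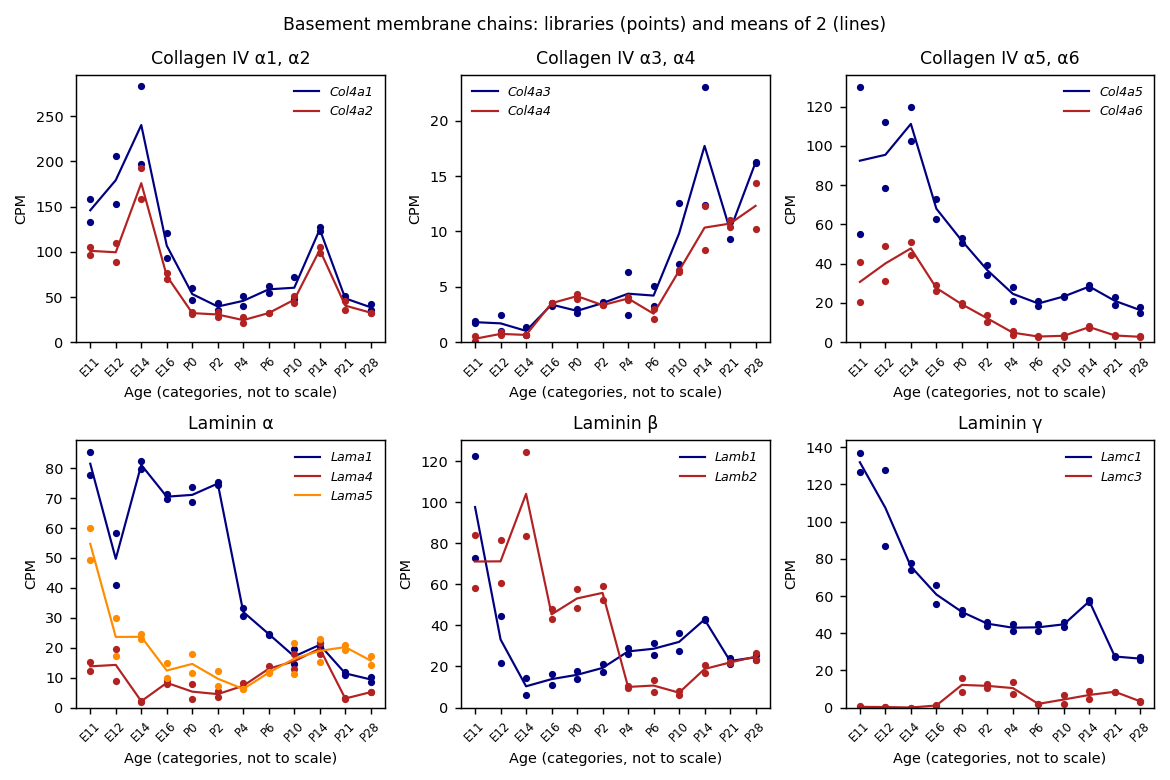
CPM of collagen IV chains (top) and of laminin chains (bottom) at the 12 ages, with libraries as points and means of 2 as lines, on linear axes from 0. Col4a1 and Col4a2 peak at E14 and again at P14, Col4a3 and Col4a4 are highest from P14 on, and Lamb2 drops below Lamb1 between P2 and P4.

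The 6 collagen IV genes lie in 3 pairs, each read in opposite directions from neighbouring starts. In the annotation of GRCm38 the Col4a1 and Col4a2 starts on chromosome 8 overlap by 22 bases, those of Col4a4 and Col4a3 on chromosome 1 lie 71 bases apart, and those of Col4a6 and Col4a5 on chromosome X lie 1308 bases apart. Col4a1, a chain of the ubiquitous α1α1α2 trimer, was at 159 and 133 CPM at E11, 197 and 283 at E14, 43.4 and 35.5 at P2, 127 and 123 at P14 and 41.9 and 35.3 at P28. Col4a2 was at 105 and 96.7 CPM at E11, 159 and 193 at E14, 27.8 and 33.5 at P2, 99.1 and 105 at P14 and 32.8 and 32.5 at P28. Both thus had an embryonic and a P14 maximum with nonoverlapping libraries at P2 and P28. From P6 to P14 Col4a2 rose by 1.66 (SE 0.16, edgeR adjusted p 3.85e-07) and Col4a1 by 1.09 (SE 0.22, edgeR adjusted p 0.000822), and from P14 to P28 they fell by 1.64 and 1.69 (SE 0.16 and 0.23, edgeR adjusted p 1.74e-06 and 4.19e-05).

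Col4a5 and Col4a6, chains of the α5α5α6 trimer of smooth muscle and lens capsule, were highest in the embryo. Col4a6 was at 44.4 and 51.2 CPM at E14, 29.2 and 26.1 at E16, 2.42 and 3.39 at P6, 8.14 and 7.29 at P14 and 2.55 and 2.96 at P28. From E16 to P6 it fell by 3.25 (SE 0.32, edgeR adjusted p 2.17e-07) and Col4a5 by 1.79 (SE 0.28, edgeR adjusted p 4.59e-05). Col4a6 then rose from P6 to P14 by 1.41 (SE 0.31, edgeR adjusted p 0.00183), to libraries that stayed below those of E16. Col4a5 was at 73.1 and 62.9 CPM at E16, 18.7 and 20.8 at P6, 29.2 and 27.6 at P14 and 14.9 and 17.7 at P28, and its change from P6 to P14 was not called (log2 change 0.52, edgeR adjusted p 0.151).

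Col4a3 and Col4a4, chains of the α3α4α5 trimer known from mature kidney filters and from the adult eye, ran the other way. Col4a4 was at 0.558 and 0.0686 CPM at E11, 3.52 and 3.52 at E16, 2.13 and 3.02 at P6, 12.3 and 8.36 at P14 and 14.4 and 10.21 at P28. Col4a3 was at 1.87 and 1.75 CPM at E11, 3.31 and 5.11 at P6, 12.4 and 23 at P14 and 16.3 and 16.18 at P28. From P6 to P14 both rose, by 2.004 for Col4a4 (SE 0.35, edgeR adjusted p 0.000217) and 2.07 for Col4a3 (SE 0.44, edgeR adjusted p 0.00115). Col4a4 had already risen from E11 to E16 by 3.46 (SE 0.44, edgeR adjusted p 5.32e-06). Per kb, Col4a3 held 0.298% and 0.132% of collagen IV at E11, 4.08% and 4.53% at P14 and 8.9% and 10.5% at P28, and Col4a4 held 9.16% and 6.71% at P28.

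The 71 bases between the annotated Col4a4 and Col4a3 starts are shown as the gap of this pair, whose promoter may reach beyond them. They lie at chr1:82586850-82586920 and are written 5′ to 3′ on the minus strand, that is in the direction of Col4a4, with CpG pairs in capitals.
Col4a4 to Col4a3: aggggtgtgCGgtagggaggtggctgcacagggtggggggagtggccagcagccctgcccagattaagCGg
They were 69.0% G and C with 2 CpG pairs, where windows of that length before the starts of all 32851 promoters had a median of 54.9% and 2. Neither the GC box letters GGGCGG, the TATA box letters TATAAA nor the CCAAT box was found on either strand, where 20.7%, 4.41% and 13.3% of all promoters had one in a window of the same length. Promoter sequences are from RefSeq on GRCm38.p6, and 40 of the 56 genes had an entry.

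The multiplexins, collagens of basement membranes whose ends release antiangiogenic fragments, were embryonic. Col18a1, the source of endostatin, was at 175 and 241 CPM at E11, 113 and 133 at E14, 42.1 and 47.8 at E16, 63.1 and 39.7 at P14 and 16.103 and 14.12 at P28. It fell from E11 to E16 by 2.21 (SE 0.20, edgeR adjusted p 8.91e-08) and from P14 to P28 by 1.77 (SE 0.20, edgeR adjusted p 9.6e-06). From P6 to P14 it was not called in the gene table (log2 change 0.70) but was from summed transcripts (1.53). Its transcripts differed in start. Col18a1-001, of 5063 bases, held 97.9% and 98.6% of the gene's estimates at E11 and 66.3% and 74.1% at P14. Col18a1-201, of 6338 bases and from a start inside the gene, held 0.0% in both E11 libraries, 13.1% and 17.5% at P10, 21.8% and 23.8% at P14, 5.2% and 9.0% at P21 and 2.0% and 17.7% at P28. In every library up to P6 the longer form held 4.6% or less, and at P28 its replicates were far apart. Col15a1 varied between replicates through E16, at 5.02 and 14.4 CPM there. Its call as lower at P6 than at E16 (log2 change -2.10, SE 0.77, edgeR adjusted p 0.0331) was lost without E16 replicate 2 (-1.15, adjusted p 0.337), P6 replicate 1 (adjusted p 0.154) or P6 replicate 2 (adjusted p 0.108).

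Among fibril-forming chains, Col1a1, Col1a2, Col3a1, Col5a1 and Col5a2 were highest in the embryo and Col2a1 after birth. Col2a1, the main collagen of the vitreous and of cartilage, was at 206 and 224 CPM at E11, 95.6 and 79.5 at E16, 247 and 200 at P0, 375 and 386 at P2, 169 and 165 at P4 and 49.5 and 52.3 at P28. It thus dipped at E16 and peaked at P2 with libraries that no other age reached. It fell from E11 to E16 by 1.29 (SE 0.14, edgeR adjusted p 8.61e-07) and its log2 change from P14 to P28 was -1.20 (SE 0.14, edgeR adjusted p 1.33e-05). Per kb it was the most abundant member at P2, at 83.7 ± 3.72 CPM per kb (SD, n = 2). Its 2 full transcripts, of 5104 and 4862 bases, split 49.6% to 44.6% and 51.3% to 44.7% at E11 and 20.9% to 72.6% and 23.7% to 68.7% at P0. From P4 on the share of the longer one ranged from 11.8% to 51.3% and the replicates of P4 (11.8% and 38.3%) and P28 (43.8% and 16.22%) were far apart.

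Col11a1 and Col11a2, chains of the collagen XI that starts collagen II fibrils, did not run in parallel. Col11a1 was at 44.9 and 72.1 CPM at E11, 17.4 and 15.8 at E16, 24.8 and 23.6 at P14 and 14 and 8.43 at P21. Col11a2 was at 5.75 and 2.54 CPM at E11, 13.8 and 15.6 at P14 and 31.9 and 26.4 at P21, and rose from P6 to P14 by 1.58 (SE 0.37, edgeR adjusted p 0.00235). Summed transcripts gave 20.5 and 22.6 CPM at P21. Of the collagen V chains, which cap the width of collagen I fibrils, Col5a1 was at 51.2 and 57.9 CPM at E14 and between 4.18 and 8.73 CPM in the libraries from P4 to P10. Col5a2 was at 29.4 and 19.8 CPM at E11 and 1.21 and 3.36 at P28. Col5a3 ran opposite to both. It was at 0.331 and 0.402 CPM at E16, 11.8 and 12 at P6, 23.2 and 26.1 at P14 and 4.06 and 4.89 at P21, and its log2 change was 5.01 from E16 to P6 (SE 0.39, edgeR adjusted p 1.13e-08) and -2.21 from P14 to P28 (SE 0.30, edgeR adjusted p 5.4e-05).

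Col1a2 had a second, smaller maximum. It was at 8.15 and 6.37 CPM at E16, 1.84 and 2.87 at P6, 14.3 and 9.5 at P10, 15.1 and 13.4 at P14 and 2.78 and 3.1 at P28. It fell from E16 to P6 by 1.62 (SE 0.32, edgeR adjusted p 0.000519), rose from P6 to P14 by 2.59 (SE 0.33, edgeR adjusted p 8.19e-06) and fell to P28 by 2.27 (SE 0.32, edgeR adjusted p 6.51e-05). Its partner Col1a1 was not called in any of these windows and did not exceed 4.04 CPM after E14. Col24a1 was at 17.4 and 17.2 CPM at P21 against 4.76 and 5.23 at P14 and 2.87 and 5.39 at P28. Col27a1, a cartilage chain, was at 1.71 and 1.95 CPM at P0, 12.5 and 10.4 at P6 and 30.3 and 23.3 at P21, and rose from E16 to P6 by 2.07 (SE 0.26, edgeR adjusted p 4.45e-06). At P0 67.4% and 71.8% of its estimates lay on a transcript annotated as a retained intron, against 9.0% and 7.4% at P21, and the coding transcript held 25.03% and 24.2% at P0 and 72.0% and 74.7% at P21.

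Collagen IX coats collagen II fibrils, and its 3 chains peaked at different ages. Col9a1 was at 444 and 346 CPM at E11, 205 and 215 at E16, 34.1 and 36.8 at P4, 134 and 132 at P10, 233 and 237 at P14 and 59.8 and 52.5 at P28. It thus had an embryonic maximum, a trough at P4 and a P14 maximum that no other library after E12 reached. It fell from E16 to P6 by 1.89 (SE 0.13, edgeR adjusted p 3.79e-09), rose to P14 by 2.06 (SE 0.13, edgeR adjusted p 5.88e-09) and fell to P28 by 2.07 (SE 0.13, edgeR adjusted p 4.1e-08). Col9a3 was at 84.9 and 67.8 CPM at P2, 17.9 and 21.5 at P4 and 7.66 and 9.77 at P28. Col9a2 was at 27.3 and 37.8 CPM at E14, 30.2 and 23.3 at P2 and 4.45 and 5.3 at P4. Per kb, Col9a1 held 93.0% and 97.2% of collagen IX at E11 and 42.0% and 38.2% at P2, where Col9a3 held 43.3% and 47.9%. The order at P2 rests on the length used for Col9a1. With that of the shorter transcript described next, a setting chosen after seeing the data, Col9a1 held 47.6% and 43.6% at P2 and Col9a3 39.1% and 43.6%.

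Nearly all Col9a1 came from the short transcript. Col9a1 spans bases 24177610 to 24252684 of chromosome 1, and its downstream start lies 17577 bases inside it. Col9a1-002, of 3059 bases from that start, held between 96.8% and 99.8% of the gene's estimates in every library, and Col9a1-001, of 3834 bases from the upstream start, at most 2.0%. The short form lacks the large globular amino-terminal domain of the cartilage protein and is known from the vitreous and cornea. The maxima and the P4 trough were thus of the short transcript. The sequences before the 2 starts are shown because the choice between them makes this difference. They are on the plus strand, at chr1:24177360-24177609 and chr1:24194953-24195186, end at the base before each start, and hold no capitals since neither has a CpG pair.
Upstream start: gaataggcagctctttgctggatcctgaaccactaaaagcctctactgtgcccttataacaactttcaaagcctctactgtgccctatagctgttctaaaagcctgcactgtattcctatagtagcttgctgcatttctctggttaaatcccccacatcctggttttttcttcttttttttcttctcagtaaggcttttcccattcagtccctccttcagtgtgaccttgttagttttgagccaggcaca
Downstream start: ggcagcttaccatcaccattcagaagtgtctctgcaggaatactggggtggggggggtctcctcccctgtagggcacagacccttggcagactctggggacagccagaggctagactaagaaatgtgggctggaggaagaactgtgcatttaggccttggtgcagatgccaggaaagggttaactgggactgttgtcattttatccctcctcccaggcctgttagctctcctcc
The window before the upstream start was 43.6% G and C and that before the downstream start 55.6%, against medians of 52.4% and 52.1% over all promoters in windows of these lengths. The median promoter had 6 and 5 CpG pairs. None of the GC box, TATA box and CCAAT box strings was found in them on either strand, where 32.7%, 12.4% and 33.8% of all promoters hold them in a window of the longer length.

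**Figure D4:**
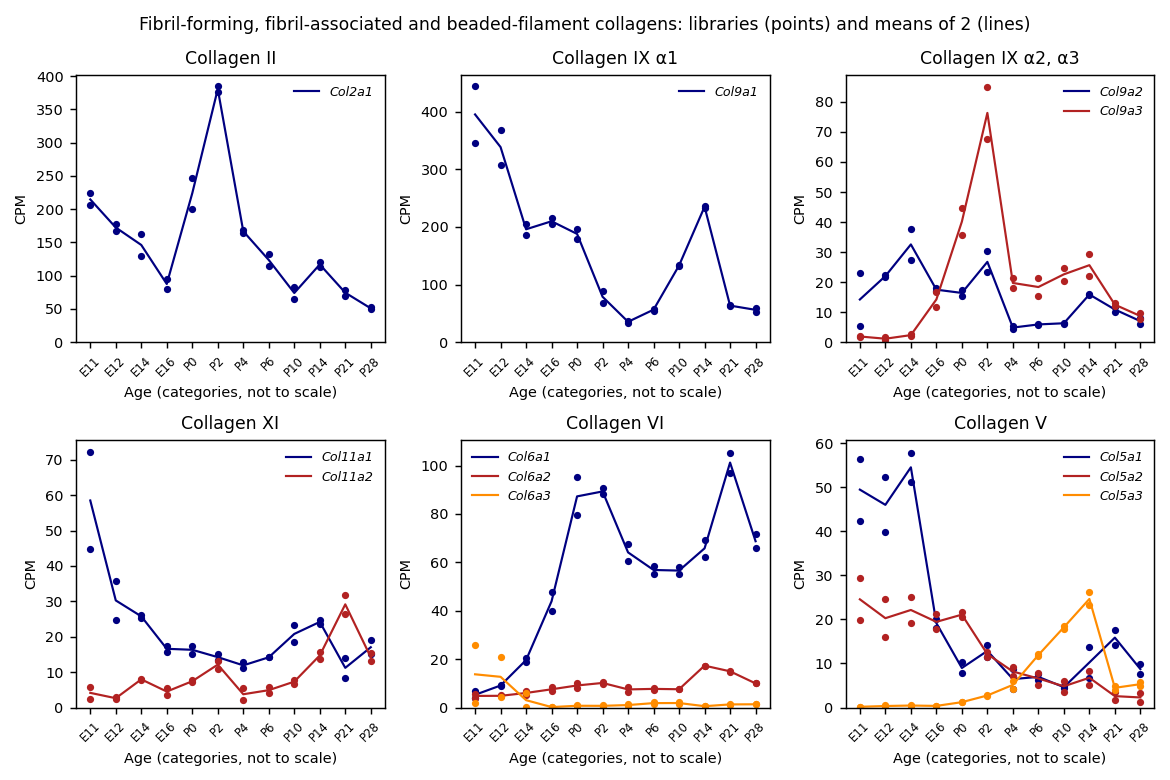
CPM of collagen II, IX, XI, VI and V chains at the 12 ages, with libraries as points and means of 2 as lines, on linear axes from 0. Col2a1 and Col9a3 peak at P2, Col9a1 at E11 and again at P14, Col6a1 stays high after birth, and Col6a3 is high in only 1 library each at E11 and E12.

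Per kb, collagen VI RNA was mainly that of its α1 chain from E14 on. Before that Col6a1 held 43.0% and 41.1% of the class at E11 and 62.8% and 50.9% at E12. Col6a1 was at 95.2 and 79.4 CPM at P0, 55.2 and 58.5 at P6, 97.1 and 105 at P21 and 65.9 and 71.6 at P28. Per kb it held between 74.0% and 89.8% of the class from E14 on, and Col6a2, which joins it in the same trimer, held 8.4% and 8.2% at P0 and 17.9% and 16.3% at P14. Col6a2 was at 7.15 and 8.26 CPM at P6, 17.3 and 17.3 at P14 and 9.96 and 9.98 at P28, and rose from P6 to P14 by 1.17 (SE 0.18, edgeR adjusted p 6.43e-05). Col6a3, the chain usually needed for secretion of the trimer, held 33.1% in E11 replicate 1 and 22.6% in E12 replicate 2 but no more than 0.913% in any library from E16 on. The related chains Col6a4 and Col6a5 were both called higher at P6 than at E16. Col6a4 was at 0.662 and 0.804 CPM at E16 and 6.93 and 6.47 at P6, a log2 change of 3.19 (SE 0.38, edgeR adjusted p 2.18e-06). From summed transcripts this change was 4.63. Col6a4 was already called higher at E16 than at E11 (edgeR adjusted p 0.000119), with 3 and 0 counts at E11 and 22 and 26 at E16. Col6a5 was at 0.0602 and 0.0309 CPM at E16, 4.32 and 5.98 at P6 and 0.23 and 0.551 at P28, and was called lower at P28 than at P14. Both E16 libraries together held 3 counts of Col6a5, so no fold is given for that rise.

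Per kb, Col20a1 was the most abundant of the other fibril-associated chains at P21 and P28, at 8.51 ± 0.373 and 9.29 ± 0.104 CPM per kb (SD, n = 2). It was at 0.477 and 0.475 CPM at E12, 12.4 and 13.6 at P14, 43.4 and 36.1 at P21 and 38.7 and 34.8 at P28, and rose from P14 to P28 by 1.498 (SE 0.20, edgeR adjusted p 4.08e-05). Col12a1 returned after its embryonic fall, at 11.4 and 3.91 CPM at P6 and 25.6 and 20.2 at P14, with a log2 change from E16 to P6 of 4.78 (SE 0.50, edgeR adjusted p 5.3e-07). Col19a1, known from neurons and from muscle, rose from P14 to P28 by 1.31 (SE 0.42, edgeR adjusted p 0.0284), from 3.03 and 2.74 CPM to 6.77 and 7.57. That call was lost without any of the 4 libraries in turn (adjusted p 0.0757 to 0.156). Col22a1, at 9.26 and 15.2 CPM at E11, fell to E16, and Col14a1 and Col16a1 did not exceed means of 1.03 and 8.46 CPM.

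Of the 4 transmembrane collagens, anchored in the cell surface, Col17a1 was highest at P10, Col23a1 and Col25a1 at P14 and Col13a1 at E11. Col23a1 was at 132 and 136 CPM at P2, 64.4 and 66.3 at P6, 134 and 145 at P14 and 82.4 and 76.5 at P28, and rose from P6 to P14 by 1.09 (SE 0.16, edgeR adjusted p 3.07e-05). Col25a1, a neuronal collagen found in amyloid plaques and needed by motor axons to reach muscle, was at 17.4 and 15.4 CPM at E11, 4 and 4.79 at E16, 13 and 14.4 at P6 and 37.3 and 36.5 at P14. It fell from E11 to E16 by 1.90 and rose in the next windows by 1.64 and 1.43 (SE 0.14, 0.14 and 0.13, edgeR adjusted p 8.67e-09, 4.8e-08 and 3.53e-07). Col17a1, the hemidesmosome collagen of epidermis, also known from photoreceptors and Müller cells, was at 1.8 and 2.01 CPM at E16, 22.1 and 23.4 at P6, 27.1 and 22.1 at P10 and 5.68 and 4.52 at P28. From E16 to P6 it rose by 3.57 (SE 0.27, edgeR adjusted p 9.8e-09). Col8a1 was at 28.9 and 34.4 CPM at P10, 35.8 and 29.6 at P14 and 5.92 and 8.16 at P21, and fell from P14 to P28 by 1.95 (SE 0.30, edgeR adjusted p 0.00015). Col8a2 rose from P6 to P14 by 1.76 (SE 0.58, edgeR adjusted p 0.0228), a call lost without P14 replicate 1, P14 replicate 2 or P6 replicate 1 (adjusted p 0.0667, 0.0704 and 0.171). Col7a1, the anchoring fibril chain of skin, was at 10.9 and 11 CPM at P14, 36.7 and 39.7 at P21 and 28 and 27.2 at P28, and rose from P14 to P28 by 1.33 (SE 0.31, edgeR adjusted p 0.00431). Col4a3bp, the ceramide transfer protein, was at 66.8 and 65.1 CPM at E11 and 157 and 151 at P28 and was called in no window.

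Across windows, the members moved in both directions from E16 to P6, mostly up from P6 to P14 and mostly down from P14 to P28. From E16 to P6, 15 were called higher and 13 lower, where 13.21% and 11.73% of all genes were. The count higher was 9 without P6 replicate 2. The largest rises were in Col6a5, Col5a3, Col12a1, Col17a1, Col6a4 and Col27a1, and the largest falls in Col4a6, Col15a1, Lamb2, Col9a1, Col4a5 and Col1a2. From P6 to P14, 25 of 56 were called higher, where 10.13% of all genes were, and 0 lower, where 5.517% were, with a median log2 change of 0.81 against 0.03 over all genes. Of those not called, 2 were lower at an unadjusted p of 0.05 by edgeR, 1 of them also at an adjusted p under 0.05. DESeq2 called 26 higher and 0 lower. Summed transcripts called Col17a1 lower (log2 change -1.28, edgeR adjusted p 0.000287). In the gene table Col17a1 was at 22.1 and 23.4 CPM at P6 and 10.7 and 13.9 at P14. From P14 to P28, 20 were called lower, where 4.808% of all genes were, and 3 higher (Col7a1, Col19a1 and Col20a1), where 4.049% were, with a median of -0.80 against -0.01.

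The genes higher at P14 than at P6 came from most roles. They were 5 of 11 fibrillar chains (Col1a2, Col3a1, Col5a3, Col11a2 and Col24a1), 5 of 6 collagen IV chains (all but Col4a5), Col6a2 and Col6a6, 5 fibril-associated chains (Col9a1, Col9a2, Col12a1, Col19a1 and Col20a1), Col8a1 and Col8a2, the transmembrane Col13a1, Col23a1 and Col25a1, Col7a1, and the laminins Lama2 and Lamc3. From summed transcripts Col24a1 was not called (log2 change 0.79), and Col18a1, Col22a1 and Lama5 were called higher (1.53, 1.24 and 1.81). The P14 to P28 comparison shares the P14 libraries, so the counts of both windows are not independent. Markers of some of the cell types checked moved over the same windows. Of 8 pericyte markers 6 rose from P6 to P14 and 4 fell to P28, with sums of 120 to 124 CPM at P6, 299.8 to 304 at P14 and 133 to 150 at P28. Most of these sums was Rgs5, and the other 7 gave 28.06 to 29.1, 81.1 to 82.7 and 35.5 to 46.3 CPM. Of 10 endothelial markers 3 rose and 6 fell, with sums of 315 to 321, 429 to 438 and 176 to 186 CPM. Most of these was Kdr, which was higher still at P2 (596 and 621 CPM), and the other 9 gave 67.7 to 69.5, 123 to 126 and 74.8 to 82.3 CPM. Of 10 pigment epithelium markers 5 rose and 5 fell, with sums of 55.1 to 85.3, 143 to 168 and 55.1 to 83 CPM. Of 10 Müller glia markers 5 rose and 2 fell, with sums of 1549 to 1658, 4129 to 4441 and 3390 to 3841 CPM. The other lists did not show this course. Of 11 mesenchyme and 8 red cell markers tested, 0 were called in either window. Of 15 lens markers tested 1 rose from P6 to P14 and 0 fell to P28. Of 5 astrocyte markers 2 rose and 2 fell from P6 to P14, and 1 fell to P28. Of 10 neural retina markers 1 rose in each window and 0 fell. The part of any of these cells in the members' changes was not tested.

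**Figure D5:**
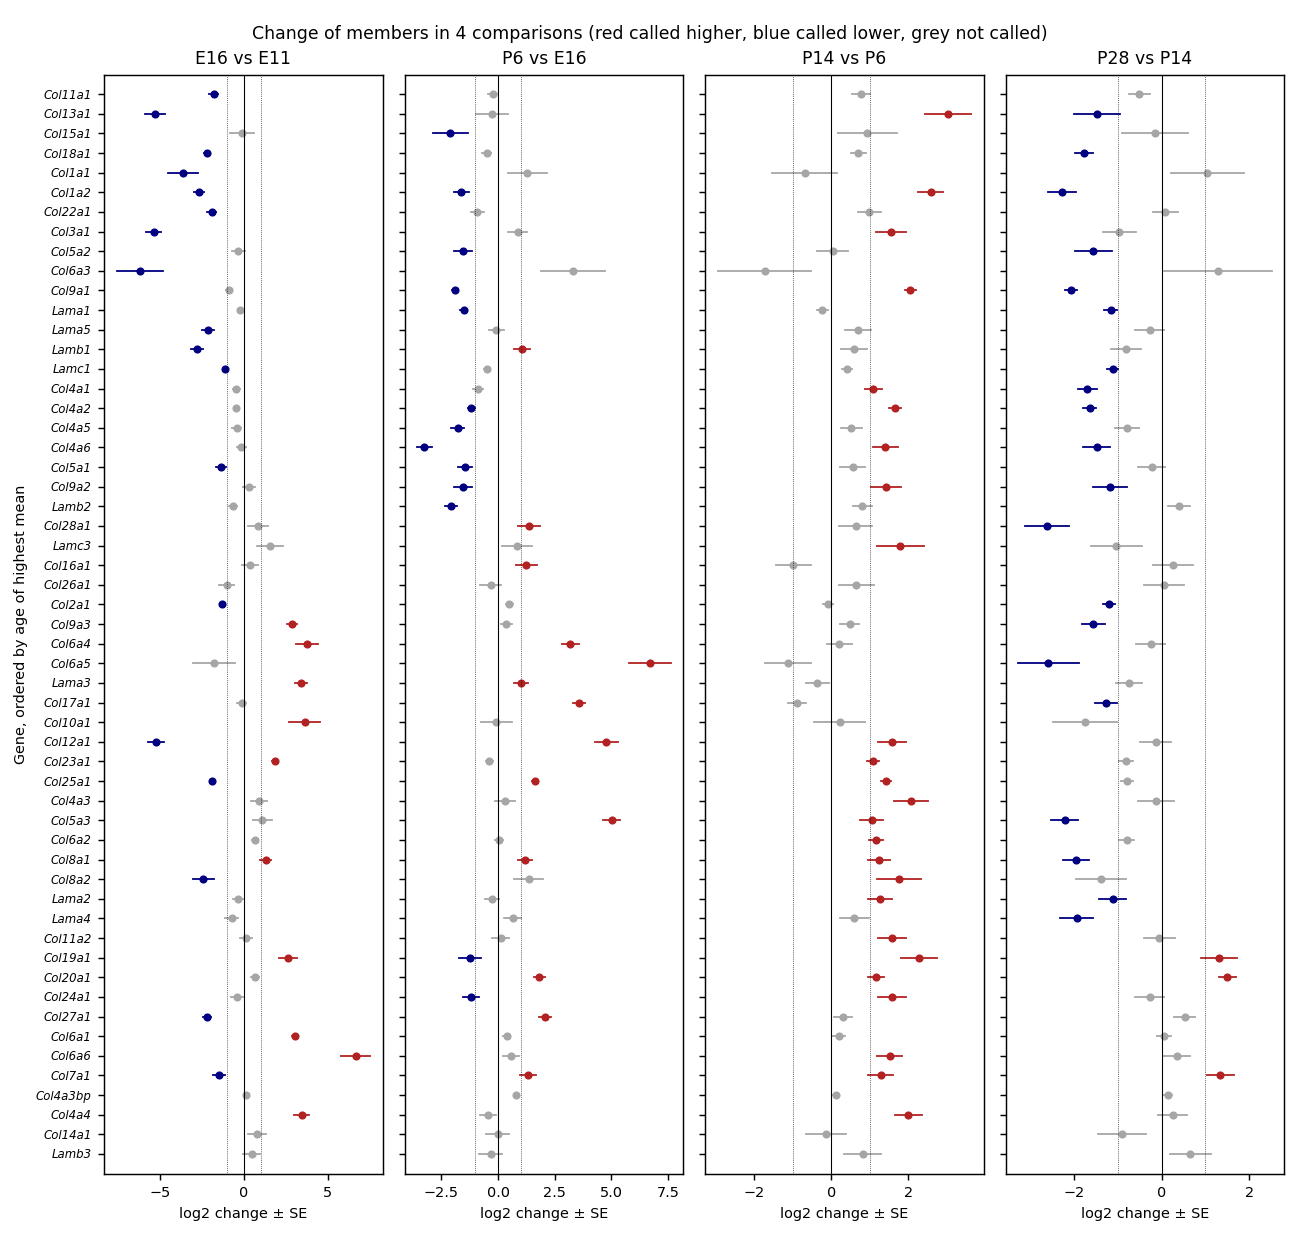
Points give the log2 change of each member but 1 in the 4 windows and bars its SE, from the edgeR fit, with red called higher, blue called lower and grey not called. Genes are ordered by the age of the highest mean, dotted lines mark 2-fold, and horizontal scales differ between panels. No point is blue from P6 to P14 and 3 are red from P14 to P28.

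Genes that work with collagens and laminins were counted over lists taken from knowledge of the pathway. Of 18 other basement membrane genes, 10 were called lower and 3 higher from E11 to E16, 7 and 2 from E16 to P6, 1 and 9 from P6 to P14 and 8 and 0 from P14 to P28. These were 55.6% and 16.7%, 38.9% and 11.11%, 5.56% and 50.0%, and 44.4% and 0.0% of the list. Over all genes tested, 9.113% and 13.57%, 11.73% and 13.21%, 5.517% and 10.13%, and 4.808% and 4.049% were called lower and higher. The median log2 changes of the list were -1.33, -0.38, 1.00 and -0.92, against 0.00, 0.01, 0.03 and -0.01 over all genes. Nid1 and Nid2, the nidogens that link laminin to collagen IV, fell from P14 to P28 by 2.92 and 3.24 on the log2 scale (edgeR adjusted p 0.00214 and 5.15e-06), and Fras1 rose from P6 to P14 by 2.56 (edgeR adjusted p 4.7e-05). Frem1, its partner, rose from E11 to E16 by 3.48 (edgeR adjusted p 1.88e-11). Fbln1 fell from E16 to P6 by 3.80 (edgeR adjusted p 8.22e-07). Tinagl1 was called higher at P14 than at P6 (edgeR adjusted p 0.00519) but at 0.998 and 0.646 CPM stayed rare.

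Of 27 collagen processing genes, 7 were lower and 2 higher from E11 to E16, 6 and 3 from E16 to P6, 1 and 7 from P6 to P14 and 6 and 2 from P14 to P28. These were 25.9% and 7.41%, 22.2% and 11.11%, 3.70% and 25.9%, and 22.2% and 7.41% of the list, so that the share called higher was below that of all genes in the first pair of windows. Serpinh1, the collagen chaperone of the endoplasmic reticulum, fell from P14 to P28 by 2.02 (edgeR adjusted p 6.03e-08), and Lox, which crosslinks collagen, by 2.60 (edgeR adjusted p 0.000112). Pcolce2, which speeds procollagen cleavage, rose from P6 to P14 by 4.55 (edgeR adjusted p 4.53e-06) and Adamts2, a procollagen protease, by 2.86, on libraries at 4.79 and 20.6 CPM (edgeR adjusted p 0.00109). Adamts3 rose from E16 to P6 by 2.58 and Adamts14 fell by 2.59 (edgeR adjusted p 1.64e-08 and 0.0016). Loxl4, also a crosslinking enzyme, was called higher at E16 than at E11 on libraries at 0.241 and 0.186 CPM (edgeR adjusted p 0.0162). Of 13 receptor genes, 3 were called lower and 2 higher from E11 to E16, 2 and 2 in each of the next windows and 3 and 1 from P14 to P28. These were 15.4% to 23.1% lower and 7.69% to 15.4% higher. Over all genes 4.808% to 11.73% were called lower and 4.049% to 13.57% higher in a window, so the shares higher lay near those of all genes. Among the receptor genes called were Itga3, which binds laminin, higher at P6 than at E16 by 2.65 (edgeR adjusted p 5.51e-07), and Itga1, which binds collagen, higher at P14 than at P6 by 1.45 and lower at P28 by 1.56 (edgeR adjusted p 0.0199 and 0.0198). From E11 to E16 the laminin receptor Bcam fell by 2.21, from 25.8 and 66.2 CPM, and the laminin integrin Itga7 rose by 2.92 (edgeR adjusted p 2.24e-05 and 2.12e-06). Itga2, which binds collagen, was at 0.421 and 0.433 CPM at E16, 3.78 and 6.01 at P6 and 1.38 and 1.71 at P14, called higher and then lower (edgeR adjusted p 0.000545 and 0.0446). Itga10, another collagen integrin, rose from P14 to P28 by 1.25 (edgeR adjusted p 0.0042). Of 9 dystroglycan glycosylation genes tested, of 12 listed, 5 were called as differing between ages, where 77.28% of all genes were. Only Pomgnt2 was called in any of the 4 windows, higher at P14 than at P6 by 1.14 (edgeR adjusted p 0.00149). Of 16 matrix breakdown genes, 3 were called lower and 4 higher from E11 to E16, and 6 and 2 from E16 to P6. These were 18.75% and 25%, and 37.5% and 12.5%, against 9.113% and 13.57%, and 11.73% and 13.21%, of all genes. In the last windows 5.517% and 10.13%, and 4.808% and 4.049%, of all genes were called lower and higher. From P6 to P14, 1 was called lower (6.25%) and 4 higher (25%), among them Adamts5 by 3.04 and Mmp9 by 2.50 (edgeR adjusted p 6.21e-08 and 0.000355), and from P14 to P28 0 higher and 5 lower (31.2%), among them Mmp14 by 1.45 and Adamts4 by 1.96 (edgeR adjusted p 1.11e-07 and 1.31e-06). From E11 to E16 Mmp24, a membrane-bound protease of neurons, rose by 8.45, from 0.23 and 0.0686 CPM to 57.6 and 51.1 (edgeR adjusted p 9.24e-13), and Adamts9 fell by 3.81, from 115 and 116 CPM to 7.34 and 9.15 (edgeR adjusted p 1.38e-10). From E16 to P6 Adamts5 fell by 2.44 and Mmp9 rose by 2.54 (edgeR adjusted p 2.43e-07 and 0.000973).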

How the data were processed

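Polyadenylated RNA of mouse retina was sequenced from directional libraries, 2 at each of 12 ages, per the labels' protocols. The authors deposited estimated counts per gene and per transcript, which need not be whole numbers. The submitters' processing notes name kallisto 0.42.4, edgeR 3.13.9 and GRCm38.p5 without their roles, and of the step from transcripts to genes the sources used here say nothing. The gene table and summed transcripts were compared over 1190 values, each of a member in a library with at least 20 counts. The median ratio was 1.00, and 9.33% were over 1.5 times apart. Some of these differences, but not all, are given beside the genes they touch.

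Deposited gene counts were rounded, scaled by trimmed means and filtered with filterByExpr at a minimum count of 10. They were tested in edgeR 4.0.16 (R 4.3.3, limma 3.58.1) by the quasi-likelihood test over all 24 libraries with age as the factor and 12 residual degrees of freedom. P-values were adjusted by Benjamini-Hochberg over 21858 genes. A change was called at an adjusted p under 0.05 and at least 2-fold, in 4 windows (E16 against E11, P6 against E16, P14 against P6 and P28 against P14). The SE is the log2 change divided by the root of the F statistic. Levels per length are summed transcript estimates in CPM per kb of the longest coding transcript, which understates Col9a1, whose reads lie on a shorter one. Library totals were 24567532 to 35898879, and 2 libraries an age limit the precision. A count of 0 allows up to 3 counts, for counting error only.

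Members and lists were chosen with earlier results of these data known. The genes named in a window are the 6 largest falls and the 6 largest rises (where as many were called) among called members with a mean of at least 5 CPM at the higher age and both libraries of that age above both of the other. Also named are the laminins, every collagen IV chain, members with a peak mean of at least 20 CPM and 2 genes per pathway list and window, and others were chosen by role after their values were seen. Alternatives were DESeq2 1.42.0, its size factors (RLE) in edgeR, scaling by library size alone, no filter, at least 1 CPM in 4 libraries, no fold threshold, without Col4a3bp, the compared ages alone, E12 in place of E11, each library left out, a replicate block, and, chosen after seeing the data, summed transcripts, a shorter Col9a1 length and leaving out 3 libraries rich in lens crystallins. In the main fit replicate numbers were not treated as pairing the samples. Values of 1 member and of 1 gene of the pathway lists are not reported here.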

Additional observations from a re-analysis of the deposited data

How the results depend on the processing

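The 37 named changes were recomputed under each alternative that applied, 1268 comparisons in all, of which 1251 kept their direction and side of the threshold, 17 kept the direction without passing it and 0 reversed. The 17 are given beside Col6a3, Col8a1, Col23a1, Col15a1, Lamc3, Col8a2 and Col19a1, and the other 30 changes held in all. From E16 to P6 the count called higher was 15 and ran from 9 to 17 with a library left out, with 9 without P6 replicate 2. From P6 to P14 the count called lower was 0 and was 2 in a fit of the compared ages alone and with no filter (Col6a3 and Col6a5), and 1 with no fold threshold, with summed transcripts and without the 3 libraries rich in crystallins. It was 0 to 1 with a library left out. Fewer samples or genes enter some of these fits, and otherwise the cause was not tested. With a library left out, counts higher and lower ran from 9 to 11 and 17 to 19 from E11 to E16, the count lower from 10 to 13 from E16 to P6, the count higher from 18 to 25 from P6 to P14, and 2 to 3 and 15 to 21 from P14 to P28. Members called over all ages ran from 53 to 55. Replicates of different ages with the same number deviated with a mean correlation of 0.0139 (-0.274 to 0.344 over 66 pairs of ages). With the replicate block the counts higher and lower were 10 and 18, 15 and 13, 25 and 0, and 3 and 20. Scaling by library size alone moved the median of all genes from E11 to E16 by 0.14 on the log2 scale. With 2 libraries per age, differences below the spread between them were not detectable.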
